A study of Mus musculus with 12 samples.

Results

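Colon tissue of 3 mice that drank L-arginine after dextran sulfate sodium (the DSS + L-Arg group) was compared with colon tissue of 3 mice that drank plain water after it (the DSS group). These are 6 of the 12 samples of the series, taken by their group label alone, and each is one array of total RNA from one mouse. On each array 19938 genes were compared. All 12 mice were wild-type male C57BL/6 animals, 7 weeks old when they entered the experiment and labelled as 8 weeks and 3 days old. Mice of both groups drank 4% DSS over 6 days, then for 4 days either water or 1% L-arginine, and the colon was sampled on day 10. The other 6 mice, 3 on water (Ctrl) and 3 on L-arginine without DSS (Ctrl + L-Arg), entered the estimate of the spread between mice and give the level of each gene without colitis. The study combined a proximal and a distal piece of colon from each mouse, so that epithelium, muscle, stroma and blood-derived cells contributed to one measurement. The comparison asks which transcripts of the injured colon differed when L-arginine was given during recovery.

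DSS, a sulfated glucose polymer, damages the cells that line the colon and lets bacteria of the lumen reach the tissue beneath. Neutrophils and monocytes then enter from the blood, and stromal cells, macrophages and epithelium release cytokines, prostaglandins and matrix-degrading proteases until the surface has regrown. L-arginine enters cells through cationic amino acid transporters, and serves as the substrate of nitric oxide synthases, which make nitric oxide and citrulline, and of arginases, which make ornithine for polyamines and proline. The arrays give intensities on the log2 scale, on which a difference of 1 is a fold of 2. The tissue label was checked against genes of colonic epithelium. Car1, a carbonic anhydrase of surface colonocytes, lay between 14.01 and 14.16 in the 6 mice, and Muc2, the goblet cell mucin, lay between 13.05 and 13.93, near the top of the scale.

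In the mice given L-arginine after DSS 104 genes were lower than in the mice given DSS alone, which is 0.522% of those tested, and 23 genes were higher, which is 0.115% (limma over all 12 arrays, Benjamini-Hochberg adjusted p under 0.05). In both sets the values of the 3 and 3 mice did not overlap for any gene. Without regard to the test, the groups did not overlap for 1117 genes in the lower direction (5.6% of those tested) and for 2195 in the higher direction (11.0%). The lower genes were changed more: their median difference was -1.36, with 76 beyond a fold of 2 and 8 beyond a fold of 8, whereas the higher genes had a median of 0.63, with 5 beyond a fold of 2 and none beyond a fold of 4. At the thresholds the study used, an unadjusted p under 0.01 and a fold over 2, limma gave 168 lower genes (0.843%) and 22 higher (0.11%). The study took its p from SAM (Significance Analysis of Microarrays). SAM run here on the 6 arrays gave 168 lower and 31 higher genes at these thresholds. In tissue of mixed cells a lower signal from fewer cells of a type and one from less RNA per cell cannot be told apart. The limma p-values set each difference against 1 estimate per gene of the spread between mice, which all 12 arrays share. As the background for the gene lists, 5.53% of all genes were lower and 7.99% higher at an unadjusted p under 0.05, and the mean was lower for 37.2% and higher for 62.8%.

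Set against the mean of the Ctrl mice, the median of the 104 lower genes was 1.30, 1.40 and 1.64 in the 3 DSS mice and 0.14, 0.12 and 0.12 in the 3 DSS + L-Arg mice. For the 23 higher genes the medians were -0.52, -0.84 and -0.72 in the DSS mice and 0.02, 0.06 and -0.08 in the DSS + L-Arg mice. These medians describe genes chosen for a difference between the same mice, and none of them passed the test between Ctrl + L-Arg and Ctrl mice (lowest adjusted p over all genes 0.999, limma). Over the 104 genes the DSS mice varied more among themselves, with a median SD of 0.37 against 0.15 in the DSS + L-Arg mice. Over all genes the median SD was 0.15 in the DSS mice and 0.13 in the DSS + L-Arg mice. The number of calls also depended on single animals. Without one of the DSS + L-Arg arrays 17 to 20 genes were lower and 0 to 2 higher, and without DSS 1 there were 208 lower and 115 higher. Without DSS 2 there were 8 higher genes. Leaving out one Ctrl array gave 47 to 60 lower and 4 to 8 higher genes, leaving out Ctrl + L-Arg 1 gave 42 and 2, and leaving out Ctrl + L-Arg 3 gave 10 higher genes. With the 6 DSS and DSS + L-Arg arrays alone 26 genes were lower and none higher, while 1827 had an unadjusted p under 0.05 there, against 2697 over the 12 arrays. The genes called lower whichever single array was left out were 14: Abca1, Cemip, Cp, Il6, Mmp10, Mmp13, Mmp3, Ms4a4a, Ngp, Nrg1, Plau, Ptges, Saa3 and Serpina3n. No higher gene was called in all of these fits. Every other call named below was lost without at least one array.

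The promoters of 3 of the genes with the largest decreases and of Il6 are shown to set the sequence upstream of these transcripts beside their values: Ngp, a granule protein of neutrophils, Ifitm6, an interferon-induced transmembrane protein of myeloid cells, Mmp13, a collagenase, and Il6, the cytokine that drives the acute-phase response. Each is the 250 bases before the start of transcription from RefSeq on GRCm38.p6, read 5′ to 3′ on the strand of the gene, at chr9:110419558-110419807 (Ngp, plus strand), chr7:141016893-141017142 (Ifitm6, minus strand), chr9:7272264-7272513 (Mmp13, plus strand) and chr5:30012864-30013113 (Il6, plus strand). Capitals mark matches on either strand to the letters of C/EBP (TTGCNNAA), STAT (TTCNNNGAA), AP-1 (TGANTCA) or NF-kB motifs. Il6 was added after its values were seen.
Ngp: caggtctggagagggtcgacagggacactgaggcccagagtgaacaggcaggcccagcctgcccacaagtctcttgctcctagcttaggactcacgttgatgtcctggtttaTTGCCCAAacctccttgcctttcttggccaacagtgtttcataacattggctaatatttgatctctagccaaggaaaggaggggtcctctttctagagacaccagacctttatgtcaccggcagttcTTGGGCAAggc
Ifitm6: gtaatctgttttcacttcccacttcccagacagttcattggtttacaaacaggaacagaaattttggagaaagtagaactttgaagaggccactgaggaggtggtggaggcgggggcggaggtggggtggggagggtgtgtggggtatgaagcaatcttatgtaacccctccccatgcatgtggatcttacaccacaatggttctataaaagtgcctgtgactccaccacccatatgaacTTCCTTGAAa
Mmp13: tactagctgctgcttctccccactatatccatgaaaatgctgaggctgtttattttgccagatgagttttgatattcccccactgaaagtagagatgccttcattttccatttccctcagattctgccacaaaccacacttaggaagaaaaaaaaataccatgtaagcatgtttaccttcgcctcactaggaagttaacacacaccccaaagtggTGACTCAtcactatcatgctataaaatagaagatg
Il6: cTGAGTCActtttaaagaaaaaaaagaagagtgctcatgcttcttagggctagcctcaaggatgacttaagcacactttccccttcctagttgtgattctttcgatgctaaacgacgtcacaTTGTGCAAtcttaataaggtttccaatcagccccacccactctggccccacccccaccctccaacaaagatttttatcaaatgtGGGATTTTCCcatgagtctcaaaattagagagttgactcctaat
The Ngp window held 2 C/EBP matches, the nearer one 11 bases before the start. The Ifitm6 window held a STAT match 10 bases before it, and the Mmp13 window an AP-1 match 35 bases before it. The Il6 window held NF-kB, C/EBP and AP-1 matches 44, 128 and 249 bases before the start.

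Promoters were found in the same table for 77 of the 104 lower genes, 92 promoters in all. C/EBP letters occurred in 17.39% of these, against 8.67% of the 19116 promoters of genes tested and 9.56% of all 32851 promoters. AP-1 letters occurred in 9.78% against 6.03% and 6.75%. STAT letters (6.52% against 6.57% and 7.02%) and NF-kB letters (6.52% against 5.68% and 5.0%) were about as common as elsewhere. For 17 of the 23 higher genes 24 promoters were found, with C/EBP letters in 16.67% and AP-1 letters in 12.5%, and no match to the STAT or NF-kB letters. A match is a description of the letters in the window, and none of these shares was tested.

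Neutrophil transcripts were among the deepest decreases, as 4 of the 8 called genes beyond a fold of 8 are on the neutrophil list. Ngp was 9.50, 9.07 and 11.58 in the 3 DSS mice and 5.75, 5.27 and 5.77 in the 3 DSS + L-Arg mice, and 5.12 to 5.34 in the Ctrl mice. It fell by 4.46 on the log2 scale (SE 0.54, adjusted p = 0.00608, limma), a fold of 22.0, which took all 3 mice to within 1 unit of the controls. Ifitm6 was 9.98, 9.03 and 11.58 in the DSS mice against 6.63, 5.77 and 6.53 in the DSS + L-Arg mice (difference -3.88, SE 0.51, adjusted p = 0.0104). S100a9, a subunit of calprotectin, the antimicrobial calcium-binding protein that fills neutrophil cytoplasm, was 9.93, 9.14 and 11.15 against 7.23, 6.69 and 6.81 (difference -3.16, adjusted p = 0.0259). Its partner S100a8 differed by -3.10 without overlap of the groups and did not pass the test (adjusted p = 0.0558). Mmp8, the neutrophil collagenase, was 7.89, 6.75 and 9.97 against 5.17, 4.59 and 4.91 (difference -3.31, adjusted p = 0.0484). DSS 3 was the highest of all mice for each of these 5 genes.

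Of 20 measured neutrophil markers 4 were called lower and none higher, 18 had a lower mean, and for 13 the groups did not overlap. Their median difference was -2.06, beside 0.06 over all genes. The median level of the list relative to the Ctrl mean was 1.86, 1.30 and 4.19 in the DSS mice and 0.52, 0.10 and 0.29 in the DSS + L-Arg mice, so that DSS 3 stood well above the other DSS mice. The spread this gave the DSS group went with large differences that did not pass: Retnlg, a resistin-like secreted protein of neutrophils (-2.88, adjusted p = 0.094), Trem1, an amplifying receptor of myeloid cells (-2.58, adjusted p = 0.105), and Cxcr2, the neutrophil receptor for CXC chemokines (-1.97, adjusted p = 0.19). Without DSS 2 the list had 8 members called lower, and without Ctrl + L-Arg 1 or a DSS + L-Arg array 1 or 2. Mpo, the myeloperoxidase of primary granules, was 6.30, 6.15 and 5.98 in the DSS mice and 6.39, 6.27 and 6.45 in the DSS + L-Arg mice, below the median intensity of the arrays in both groups. Camp, a granule antimicrobial peptide, lay between 6.09 and 6.55 in the 6 mice. Both are made mainly in precursors of the bone marrow, and whether this bears on their values was not tested. Ngp, also a granule protein, had the largest decrease of the called genes (-4.46).

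**Figure D1:**
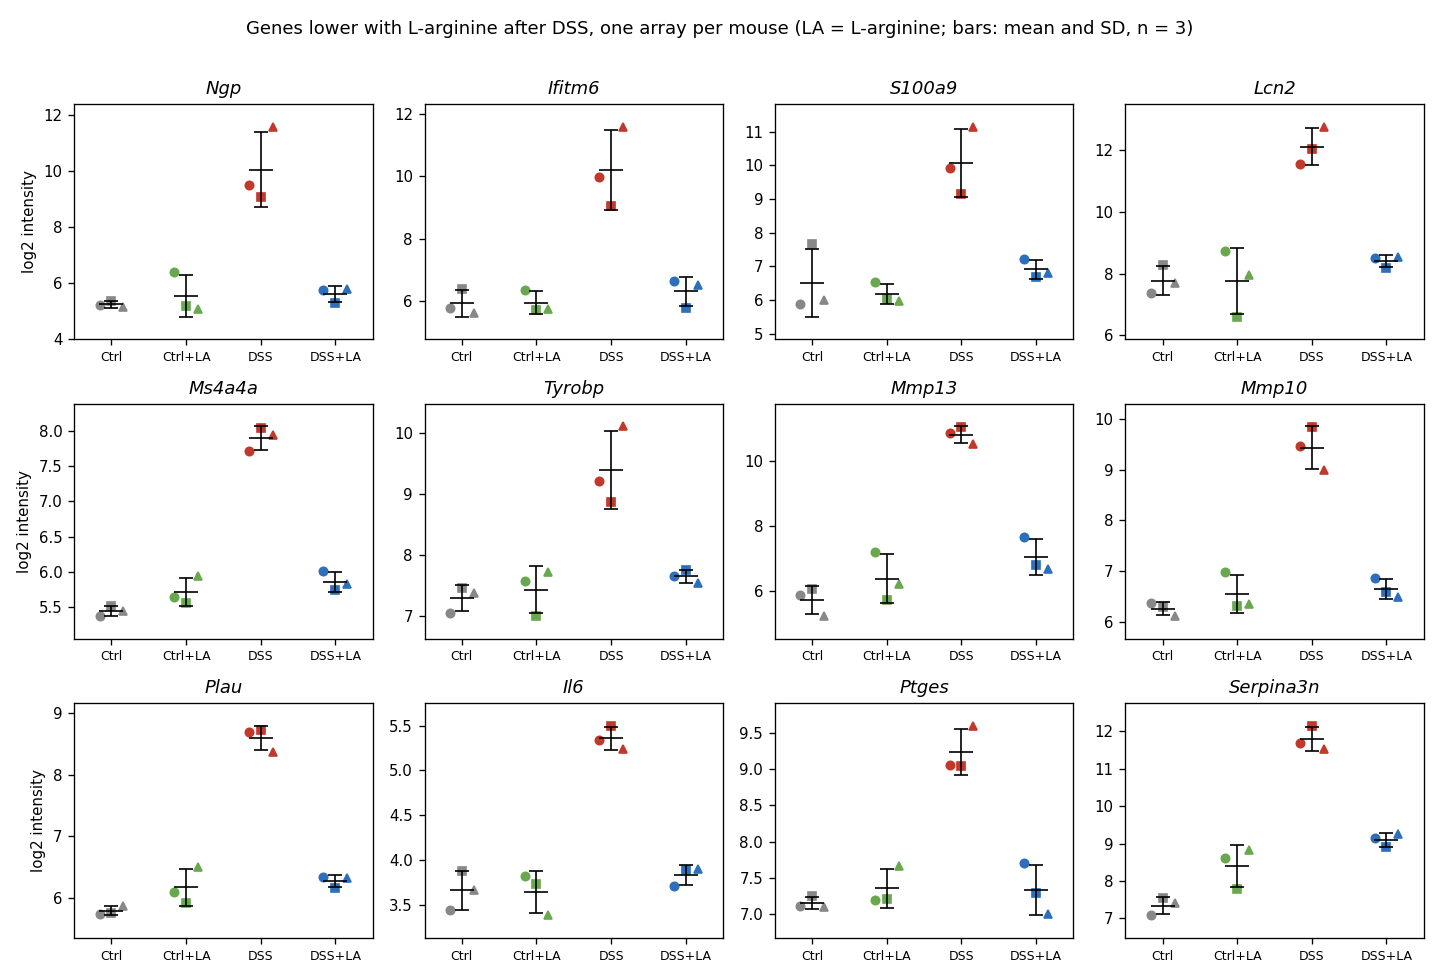
Log2 intensity (vertical axis, one range per gene) of 12 genes in each mouse of the 4 groups; circles, squares and triangles are mice 1, 2 and 3, and the black bar gives the mean and SD of 3 mice. In each panel the 3 DSS mice lie above the 3 DSS + L-Arg mice, and DSS 3 is the highest for Ngp (11.58), Ifitm6 (11.58) and S100a9 (11.15).

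Markers of monocytes and macrophages moved in the same direction with more even values. Ms4a6d, a membrane protein of macrophages, was 7.89, 7.31 and 8.57 in the DSS mice and 5.99, 5.65 and 5.60 in the DSS + L-Arg mice (difference -2.18, SE 0.29, adjusted p = 0.0111). Its relative Ms4a4a was 7.71, 8.04 and 7.94 against 6.02, 5.74 and 5.83, a difference of -2.03 with an SE of 0.12 and the lowest adjusted p in the comparison, 3.55e-05, shared with Plau. In both genes the DSS mice lay more than 1 unit above every DSS + L-Arg mouse. Fcer1g and Tyrobp, adaptor proteins that pass the signal of Fc and other activating receptors into the cell, fell by 1.98 (adjusted p = 0.0462) and 1.74 (adjusted p = 0.0246). The receptors for IgG Fcgr2b (-1.70, adjusted p = 0.0254) and Fcgr4 (-1.51, adjusted p = 0.0193) fell too. So did the scavenger and mannose receptors Msr1 (-1.20, adjusted p = 0.0123) and Mrc1 (-1.33, adjusted p = 0.0124), and Mpeg1, a pore-forming protein of macrophages (-1.55, adjusted p = 0.0404).

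Among 25 measured monocyte and macrophage markers 8 were called lower and none higher. All 25 had a lower mean, the groups did not overlap for 20, and the median difference was -1.08. The level of the list was 1.12, 1.17 and 1.47 above the Ctrl mean in the DSS mice and 0.30, 0.30 and 0.20 above it in the DSS + L-Arg mice. Pan-macrophage markers had smaller differences that did not pass: Csf1r, the receptor for the macrophage growth factor, differed by -0.82 (adjusted p = 0.137), Cd68 by -0.99 (adjusted p = 0.152) and Adgre1, a surface receptor of mature macrophages, by -0.49 (adjusted p = 0.303). The count of members called was 1 without any one DSS + L-Arg array, 4 without Ctrl + L-Arg 1 and 14 without Ctrl + L-Arg 2. Outside the list, further receptors of myeloid cells fell. Lilr4b, an inhibitory leukocyte receptor, was 8.09, 7.80 and 9.73 against 5.99, 5.96 and 6.12 (difference -2.52, adjusted p = 0.0409). Cd33, a sialic acid-binding receptor, differed by -2.35 (adjusted p = 0.0484), and Chil3, a chitinase-like secreted product of macrophages, by -2.51 (adjusted p = 0.0303).

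Among complement genes 3 of 14 were called lower and none higher, with a median of -0.96 and lower means in 13. Itgam, the alpha chain of complement receptor CR3 on neutrophils and macrophages, was 7.82, 7.47 and 9.20 in the DSS mice and 6.35, 6.26 and 6.20 in the DSS + L-Arg mice (difference -1.90, adjusted p = 0.0423). Cfp, properdin, which stabilizes the convertase of the alternative pathway, was 8.22, 8.07 and 8.39 against 7.29, 7.16 and 7.17 (difference -1.02, adjusted p = 0.0404). C1s1, a protease of the classical pathway, was 6.97, 7.01 and 6.70 against 5.84, 6.06 and 6.10 (difference -0.89, adjusted p = 0.0337). For all 3 genes the groups lay apart. C3ar1, the receptor for the C3a fragment, differed by -1.28 and did not pass (adjusted p = 0.0523). None of the 14 was called without Ctrl 1, Ctrl 3, Ctrl + L-Arg 1 or any DSS + L-Arg array, 1 was called without Ctrl 2 or DSS 2, and 6 without Ctrl + L-Arg 2.

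Matrix-degrading proteases were lower, with a small spread between mice in several members. Mmp13, which cleaves fibrillar collagen, was 10.86, 11.03 and 10.52 in the DSS mice, 7.67, 6.78 and 6.67 in the DSS + L-Arg mice and 5.21 to 6.04 in the Ctrl mice. It fell by 3.77 (SE 0.37, adjusted p = 0.00133), a fold of 13.6, and remained above every Ctrl mouse. The stromelysins Mmp3 and Mmp10, which degrade proteoglycans and activate other metalloproteinases, were lower as well. Mmp3 was 8.55, 8.91 and 7.78 against 5.55, 5.77 and 5.20 (difference -2.91, SE 0.26, adjusted p = 0.000945). Mmp10 was 9.46, 9.84 and 8.99 against 6.87, 6.59 and 6.49 (difference -2.78, SE 0.22, adjusted p = 0.000311). In all 3 the lowest DSS mouse was more than 1 unit above the highest DSS + L-Arg mouse.

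Mmp19 (-1.67, adjusted p = 0.018) and Timp1, the secreted inhibitor of metalloproteinases (-1.47, adjusted p = 0.023), also fell, and with Mmp8 this made 6 of 17 measured members of the family lower and none higher. The median of the family was -1.02, 14 means were lower, and the groups did not overlap for 11 members. The count was 3 without any one DSS + L-Arg array. The gelatinases Mmp9, abundant in neutrophils (-2.15, adjusted p = 0.0905), and Mmp2, of fibroblasts (-1.44, adjusted p = 0.143), and the membrane-bound Mmp14 (-0.60, adjusted p = 0.0536) did not pass. Plasminogen activators, which make the broad protease plasmin, showed the same direction. Plau, urokinase, was 8.69, 8.72 and 8.37 in the DSS mice and 6.34, 6.16 and 6.32 in the DSS + L-Arg mice, a difference of -2.32 with an SE of only 0.14 (adjusted p = 3.55e-05). Plat, tissue plasminogen activator, was 8.07, 9.55 and 9.61 against 7.64, 6.80 and 7.01 (difference -1.93, adjusted p = 0.0456), with DSS 1 close to the highest DSS + L-Arg mouse. These were the 2 called of 9 measured genes of plasminogen activation, all 9 of which had lower means (median -0.43), and Plau alone was called without any one of the arrays other than DSS 1.

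Of 20 genes of collagens and their assembly 2 were lower and none higher (median -0.37). Lox, which crosslinks collagen and elastin, was 7.40, 8.31 and 7.44 against 5.87, 6.48 and 5.87 (difference -1.64, adjusted p = 0.0287), and Col18a1, a collagen of basement membranes, differed by -0.67 (adjusted p = 0.0359). Tnc, tenascin, a matrix glycoprotein of wounds, differed by -1.76 without overlap and did not pass (adjusted p = 0.0678). The count for this list was 0 without Ctrl + L-Arg 1 or any DSS + L-Arg array, 1 without Ctrl 2, Ctrl 3 or DSS 2, and 4 without Ctrl + L-Arg 3. Cemip, which takes part in hyaluronan breakdown and is in no list, was 8.46, 7.93 and 7.48 against 6.20, 5.49 and 5.89 (difference -2.10, SE 0.24, adjusted p = 0.00394), and the groups lay more than 1 unit apart.

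Acute-phase and innate defense genes followed for some members and not for others. Lcn2, lipocalin, which withholds iron from bacteria, was 11.57, 12.02 and 12.75 in the DSS mice and 8.51, 8.20 and 8.53 in the DSS + L-Arg mice (difference -3.70, SE 0.46, adjusted p = 0.00651), a fold of 13.0. Saa3, a serum amyloid A made in inflamed tissue, was 11.95, 12.04 and 12.37 against 9.44, 8.53 and 8.94 (difference -3.15, SE 0.37, adjusted p = 0.00536). Serpina3n, an inhibitor of serine proteases such as neutrophil elastase, was 11.68, 12.15 and 11.54 against 9.15, 8.90 and 9.27 (difference -2.69, SE 0.25, adjusted p = 0.000967). In these 3 genes no DSS + L-Arg mouse came within 2 units of a DSS mouse. With S100a9 they were the 4 members called lower of 18, with none higher and a median of -0.43, and 2 were called without DSS + L-Arg 2. Duox2, an epithelial oxidase that makes hydrogen peroxide, was 10.94, 11.12 and 11.25 against 11.50, 11.49 and 11.63, higher in each DSS + L-Arg mouse, and did not pass (difference 0.43, adjusted p = 0.317). Cp, ceruloplasmin, a copper-carrying ferroxidase that is in no list, was 8.38, 8.98 and 7.90 against 6.48, 6.10 and 5.90 (difference -2.26, SE 0.25, adjusted p = 0.00394).

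Of the cytokine lists the IL-6 family had 2 called genes and the IL-1 family none, with similar medians, and the difference between the lists was not tested. Il6 was a dim probe set, 5.33, 5.50 and 5.24 in the DSS mice, 3.71, 3.89 and 3.91 in the DSS + L-Arg mice and 3.44 to 3.88 in the Ctrl mice. It fell by 1.52 (SE 0.14, adjusted p = 0.000945) to about the level of the Ctrl mice. Il11, a cytokine of the same receptor family made by stromal cells, was 7.57, 6.87 and 7.07 against 6.30, 6.10 and 6.37 (difference -0.91, adjusted p = 0.0359). They were the 2 called of 15 genes of the IL-6 family and of STAT3 targets, with a median of -0.42, 13 lower means and 8 members without overlap. Socs3, the feedback inhibitor of this pathway, differed by -1.01 (adjusted p = 0.288) and Osm, oncostatin M, by -1.14 (adjusted p = 0.105). The count was 4 without DSS 1, and Il6 remained as the only call without any one of the Ctrl or DSS + L-Arg arrays, Ctrl + L-Arg 1 or Ctrl + L-Arg 3.

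For the IL-1 family none of 13 genes was called by limma's adjusted p (7 lower at an unadjusted p under 0.05, median -0.41), and for CC chemokines and their receptors none of 23 (8 lower and 2 higher at an unadjusted p under 0.05, median -0.21). Il1b, the cytokine of inflammasome activation, was 9.72, 8.40 and 11.09 in the DSS mice and 7.34, 6.89 and 7.41 in the DSS + L-Arg mice, without overlap (difference -2.52, SE 0.89, adjusted p = 0.255). Il1a differed by -2.68 (adjusted p = 0.225). Ccl3, a chemokine for monocytes and neutrophils, was 10.12, 8.66 and 12.67 against 7.27, 7.19 and 7.52 (difference -3.16, SE 1.06, adjusted p = 0.239). In each of these genes DSS 3 was far above the other DSS mice, and Ctrl 2, a mouse without DSS, was at 9.14 for Il1b and at 10.06 for Ccl3. Without DSS 1 there were 2 members of the IL-1 list called lower and without DSS 3 there was 1, and the CC list had 1 or 2 without Ctrl + L-Arg 3, DSS 2 or DSS 3 and 1 called higher without DSS 1. Cxcl2, a neutrophil chemokine, was 9.09, 9.13 and 11.36 against 6.26, 5.71 and 6.50 (difference -3.70, adjusted p = 0.094), with Ctrl 2 at 8.05. Cxcl13, which attracts B cells, differed by -3.28 (adjusted p = 0.0523). Ppbp, a CXC chemokine carried by platelets, was the only one of 18 CXC chemokines and receptors called (7.05, 7.46 and 8.27 against 6.02, 6.30 and 5.60, difference -1.62, adjusted p = 0.0488). No member was called without Ctrl 1, Ctrl 3, Ctrl + L-Arg 1, DSS 2, DSS 3 or the DSS + L-Arg mice 2 or 3, and 3 were called without Ctrl + L-Arg 2. Ccl2, the main attractant of monocytes, was 7.35, 6.90 and 7.45 against 6.30, 6.47 and 5.87 and did not pass (difference -1.02, adjusted p = 0.0872). Tnf was 7.49, 8.55 and 9.33 against 8.01, 8.20 and 7.84, so that the groups overlapped (difference -0.44, adjusted p = 0.617). None of 19 genes of TNF and NF-kB signaling was called by limma (6 lower at an unadjusted p under 0.05, 1 called without DSS 1), with all 19 means lower (median -0.36) and 5 without overlap.

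The inducible steps of prostaglandin E2 synthesis were lower and a phospholipase was higher. Ptgs2, cyclooxygenase-2, was 10.05, 10.51 and 11.22 in the DSS mice and 7.46, 7.45 and 7.68 in the DSS + L-Arg mice (difference -3.06, SE 0.60, adjusted p = 0.0489). Ptges, the inducible prostaglandin E synthase downstream of it, was 9.05, 9.05 and 9.60 against 7.70, 7.29 and 7.01 (difference -1.90, SE 0.20, adjusted p = 0.00222). The DSS + L-Arg mice lay around the Ctrl level of 7.11 to 7.25 for Ptges, while for Ptgs2 Ctrl 2 was at 9.55 and the other Ctrl mice at 6.58 and 7.00. Pla2g3, a secreted phospholipase A2 that releases fatty acids from membrane lipids, was 7.56, 7.43 and 8.47 in the DSS mice and 9.70, 9.67 and 9.33 in the DSS + L-Arg mice. It rose by 1.74 (SE 0.24, adjusted p = 0.0124), a fold of 3.35 and the largest increase among the called genes. Over the 20 genes of prostaglandin synthesis, breakdown and receptors 2 were lower and 1 higher, with a median of 0.05. Ptges alone was called lower without Ctrl 3, any Ctrl + L-Arg or any DSS + L-Arg array, and Pla2g3 lost its call when DSS + L-Arg mouse 1 or mouse 2 was left out. Pla2g7, the phospholipase that inactivates platelet-activating factor and is in no list, fell by 2.25 (adjusted p = 0.0359).

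Of 19 genes of regenerating epithelium and of growth factors 3 were lower and none higher (median -0.22). Hgf, the stromal ligand of the MET receptor, was 6.91, 7.12 and 6.22 against 5.91, 5.35 and 5.35 (difference -1.22, adjusted p = 0.0364). Fgf7, the keratinocyte growth factor, was 6.97, 7.11 and 6.37 against 5.60, 5.56 and 5.45 (difference -1.28, adjusted p = 0.0489). Inhba, the subunit of activin A, differed by -1.61 (adjusted p = 0.0489). All 3 calls were lost without Ctrl 1, Ctrl 2, Ctrl + L-Arg 1, Ctrl + L-Arg 3 or any DSS + L-Arg array, and 1 was called without Ctrl 3 or DSS 2. Nrg1, neuregulin, a ligand of ErbB receptors that is in no list, was 7.75, 7.49 and 7.67 against 6.37, 6.67 and 6.42 (difference -1.15, SE 0.13, adjusted p = 0.00403), with every DSS + L-Arg mouse near the Ctrl range of 6.27 to 6.58.

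Of 18 genes of leukocyte adhesion and extravasation 2 were lower and none higher (median -0.40). Vcam1, the endothelial ligand of leukocyte integrins, was 7.33, 7.06 and 6.81 in the DSS mice and 6.19, 6.28 and 6.12 in the DSS + L-Arg mice (difference -0.87, adjusted p = 0.0493), and the other was Itgam. Icam1 differed by -0.83 without overlap and did not pass (adjusted p = 0.0708). Neither was called without any one Ctrl array, Ctrl + L-Arg 1, Ctrl + L-Arg 3 or any DSS + L-Arg array, and 1 without DSS 1. The endothelial markers moved beside them: none of 15 was called by limma (9 lower at an unadjusted p under 0.05), all 15 means were lower, the groups did not overlap for 7, and the median was -0.44. Cdh5, the cadherin of endothelial junctions, was 8.52, 8.60 and 7.52 against 6.58, 6.51 and 6.40 (difference -1.72, adjusted p = 0.0519), and Emcn, an endothelial sialoglycoprotein, differed by -1.79 (adjusted p = 0.0905). The level of the endothelial list was 0.64, 0.61 and 0.05 above the Ctrl mean in the DSS mice, so that DSS 3 stood low where it was high for neutrophil genes, and -0.20, -0.04 and -0.20 in the DSS + L-Arg mice. Without DSS 3 the list had 6 members called lower, and without Ctrl + L-Arg 2 it had 4. Its part in the adhesion genes was not tested.

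**Figure D2:**
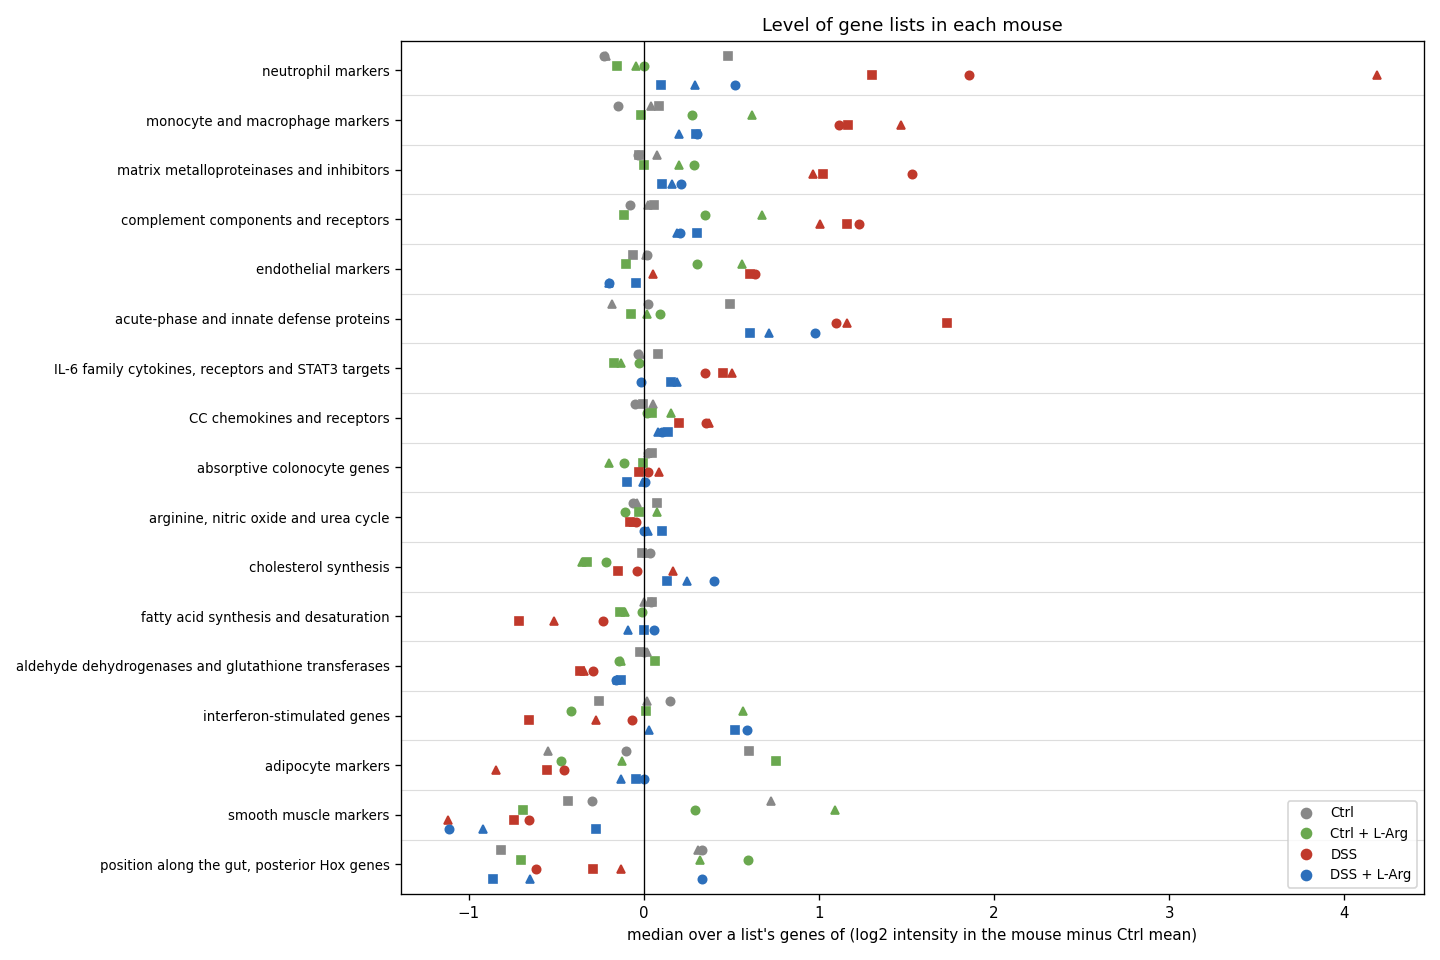
Level of 17 gene lists in each mouse, as the median over the genes of a list of the log2 intensity minus the Ctrl mean (horizontal axis); colors give the 4 groups, and circles, squares and triangles are mice 1, 2 and 3. The 3 DSS mice lie to the right of the 3 DSS + L-Arg mice for neutrophil, monocyte and macrophage, metalloproteinase and complement genes, to the left for fatty acid synthesis, and among them for smooth muscle and posterior Hox genes.

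The 23 higher genes included enzymes of detoxification and lipid synthesis. Aldh3b2 and Aldh3b3, aldehyde dehydrogenases that act on long-chain aldehydes from lipids, were both higher. Aldh3b2 was 8.98, 7.94 and 8.50 in the DSS mice and 10.01, 9.90 and 9.69 in the DSS + L-Arg mice (difference 1.39, SE 0.22, adjusted p = 0.0254). Aldh3b3 was 10.34, 10.02 and 9.96 against 10.90, 11.13 and 10.95 (difference 0.89, SE 0.14, adjusted p = 0.0254). The glutathione transferases Gstm2 (difference 0.66, adjusted p = 0.0359) and Gstt3 (difference 0.52, adjusted p = 0.0423), which conjugate electrophiles, rose by less. In each of the 4 every DSS + L-Arg mouse was above every DSS mouse. They were 4 of 30 measured aldehyde dehydrogenases and glutathione transferases, with none lower and a median of 0.28. The count was 7 without DSS 1, 2 without Ctrl 3 or Ctrl + L-Arg 3, and 1 without Ctrl + L-Arg 1, DSS 2 or DSS + L-Arg 3, while DSS + L-Arg mice 1 and 2 left 0 when taken out singly.

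Cholesterol synthesis genes were higher in 2 of 20 and lower in none. Dhcr7, which makes cholesterol from its last precursor, was 10.26, 9.78 and 9.83 in the DSS mice and 10.64, 10.77 and 10.75 in the DSS + L-Arg mice (difference 0.77, SE 0.13, adjusted p = 0.0359). Tm7sf2, a sterol reductase earlier in the pathway, was 8.84, 8.80 and 9.02 against 9.55, 9.51 and 9.36 (difference 0.58, SE 0.11, adjusted p = 0.0404). All 20 genes had a higher mean, with a median of 0.25, and for 9 the groups did not overlap. The calls were lost without any one Ctrl or DSS + L-Arg array, Ctrl + L-Arg 1 or DSS 2, and 1 was called without Ctrl + L-Arg 3, DSS 1 or DSS 3. Of 15 genes of fatty acid synthesis and desaturation none was called by limma, with 7 higher at an unadjusted p under 0.05, 14 higher means, 9 without overlap and a median of 0.55. Scd1, the desaturase that makes oleic acid, was 10.33, 10.59 and 9.77 against 11.47, 11.57 and 11.22 (difference 1.19, adjusted p = 0.0575), and Acaca, acetyl-CoA carboxylase, differed by 0.60 (adjusted p = 0.085). Without DSS 1 the list had 3 members called higher, and without DSS 2 or Ctrl + L-Arg 2 it had 1. Decr1, a reductase needed to oxidize unsaturated fatty acids in mitochondria, rose by 0.54 (adjusted p = 0.0469), the 1 of 24 genes of fatty acid oxidation called, and kept the call only without DSS 1 or Ctrl + L-Arg 2. Abca1, which exports cholesterol from cells and is in no list, was lower, 8.36, 8.90 and 8.32 against 7.02, 7.36 and 7.46 (difference -1.24, SE 0.15, adjusted p = 0.00651).

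Other increases were in genes of varied function. Ms4a12, a membrane protein known from colonic epithelium, was 9.83, 10.03 and 9.17 in the DSS mice and 11.45, 10.60 and 10.78 in the DSS + L-Arg mice (difference 1.27, SE 0.24, adjusted p = 0.0423). Chid1 (difference 1.03, adjusted p = 0.0489), Samd12 (difference 1.02, adjusted p = 0.0381) and Ggcx, the vitamin K-dependent carboxylase (difference 0.84, adjusted p = 0.0359), came next. Dusp6, a phosphatase that restrains ERK signaling, rose by 0.62 (adjusted p = 0.0489). All lay apart between the groups.

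**Figure D3:**
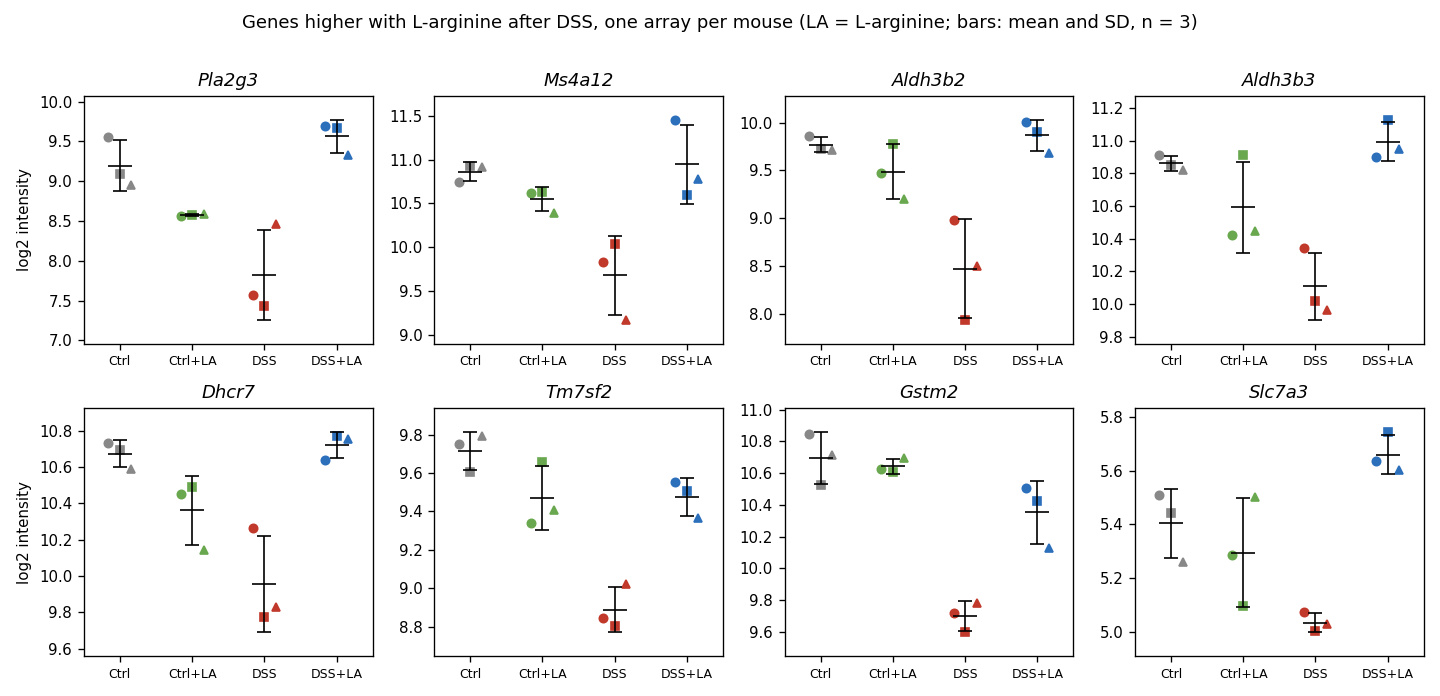
Log2 intensity (vertical axis, one range per gene) of 8 genes in each mouse of the 4 groups; circles, squares and triangles are mice 1, 2 and 3, and the black bar gives the mean and SD of 3 mice. In each panel the 3 DSS + L-Arg mice lie above the 3 DSS mice, as for Pla2g3 with 9.33 to 9.70 against 7.43 to 8.47.

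Of the genes that handle arginine itself 1 was called. Slc7a3, a cationic amino acid transporter, rose among 22 genes of arginine, nitric oxide and urea cycle metabolism (median 0.17), and none fell. It was 5.07, 5.0 and 5.03 in the DSS mice and 5.63, 5.74 and 5.60 in the DSS + L-Arg mice (difference 0.63, SE 0.11, adjusted p = 0.0359), below the median intensity of every array (6.49 to 6.64). The call held without Ctrl + L-Arg 2, Ctrl + L-Arg 3 or DSS 1 and was lost without any other array, and without DSS 1 there were 2 members called higher and 1 lower. Slc7a2, the inducible transporter of the same family in macrophages and epithelium, was 5.40, 5.67 and 6.26 against 5.16, 5.11 and 5.08, without overlap, and did not pass (difference -0.66, adjusted p = 0.154). Slc7a1, the transporter of most cells, was 9.0, 8.91 and 9.39 against 8.85, 9.16 and 8.97, with overlap (difference -0.11, adjusted p = 0.766).

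The enzymes that compete for arginine varied widely within groups. Nos2, the inducible nitric oxide synthase, was 8.81, 9.46 and 11.0 in the DSS mice and 10.23, 8.97 and 8.44 in the DSS + L-Arg mice (difference -0.55, SE 0.57, adjusted p = 0.699). All 6 values were above the 6.06 to 7.57 of the Ctrl mice, and the groups overlapped. Arg1, the cytosolic arginase of macrophages, was 6.06, 6.54 and 8.40 against 5.82, 6.37 and 5.94 (difference -0.96, adjusted p = 0.381), with DSS 3 alone high. Arg2, the mitochondrial arginase, was 11.20, 10.54 and 9.48 against 9.78, 10.23 and 10.78 (difference -0.14, adjusted p = 0.905). The urea cycle enzymes Cps1 and Otc had higher means in the DSS + L-Arg mice and did not pass. Cps1, carbamoyl phosphate synthetase, was 5.88, 6.26 and 5.96 against 7.03, 7.02 and 6.67 (difference 0.87, adjusted p = 0.229), without overlap, and Otc, ornithine transcarbamylase, was 8.00, 6.00 and 5.45 against 6.89, 7.76 and 7.83 (difference 1.02, adjusted p = 0.41). Of 9 polyamine genes none was called by limma (1 higher at an unadjusted p under 0.05, median 0.11). Odc1, the first enzyme of polyamine synthesis, was 9.86, 8.67 and 10.39 against 9.79, 9.64 and 9.81 (difference 0.11, adjusted p = 0.903), and Smox, spermine oxidase, was 10.27, 10.00 and 10.24 against 10.48, 10.75 and 10.53 (difference 0.42, adjusted p = 0.199).

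**Figure D4:**
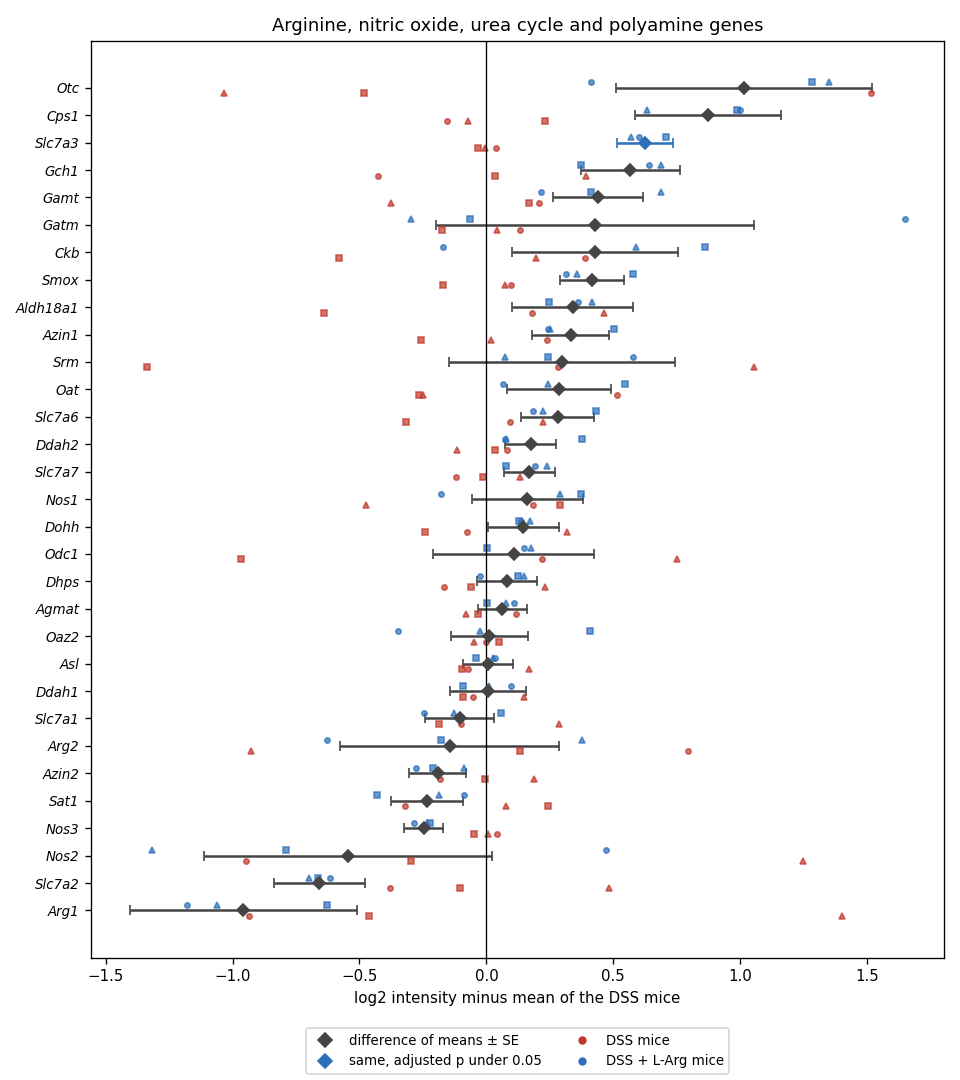
Genes of arginine, nitric oxide, urea cycle and polyamine metabolism, each as the difference of group means with its SE (diamonds) and the single mice (small circles, squares and triangles for mice 1, 2 and 3) on the log2 scale relative to the mean of the DSS mice. Slc7a3 at 0.63 is the only gene past the threshold, and the mice of the 2 groups overlap for Nos2, Arg1, Arg2 and Odc1.

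None of 20 absorptive colonocyte genes (median 0.00), 15 goblet cell genes (median 0.29), 13 stem cell and Wnt target genes (6 means higher and 7 lower), 26 genes of epithelial transport (median -0.02), 18 tight junction genes (median 0.05) or 27 cell cycle genes (median 0.14) passed limma's test in either direction. At an unadjusted p under 0.05 there were 1 lower colonocyte gene, 3 higher goblet cell genes, 1 lower transport gene, 1 lower and 2 higher tight junction genes, 1 lower cell cycle gene and 0 stem cell genes. Without DSS 1 the tight junction list had 2 members called higher and 1 lower, the goblet list 1 higher and the cell cycle list 1 lower, and without Ctrl + L-Arg 2 the colonocyte list had 1 lower. Tff3, the trefoil peptide of goblet cells, was 13.45, 13.26 and 12.82 in the DSS mice and 13.49, 13.51 and 13.58 in the DSS + L-Arg mice. Genes of energy metabolism and translation had medians slightly above that of all genes and no calls by limma, with 40 of 48 oxidative phosphorylation subunits (median 0.09), 17 of 21 TCA cycle enzymes (median 0.13) and 28 of 33 aminoacyl-tRNA synthetases (median 0.12) higher in mean, where 62.8% of all genes were. At an unadjusted p under 0.05 there were 5, 4 and 9 higher members and 1 lower synthetase, and for the oxidative phosphorylation subunits that share was near the 7.99% of all genes. Without DSS 1 the oxidative phosphorylation and TCA cycle lists each had 1 member called higher, as the first had without DSS 3. Interferon-stimulated genes had the highest median of all lists, 0.75, with 17 of 20 means higher, 10 without overlap, 13 higher at an unadjusted p under 0.05 and none called by limma. Irf7, the interferon-induced transcription factor, was 10.68, 9.37 and 10.04 against 11.39, 11.54 and 11.50 (difference 1.44, adjusted p = 0.0575), and Mx1, an antiviral GTPase, differed by 0.54 (adjusted p = 0.0695). The level of the list was -0.07, -0.66 and -0.27 relative to the Ctrl mean in the DSS mice and 0.59, 0.52 and 0.03 in the DSS + L-Arg mice, against -0.41, 0.01 and 0.57 in the Ctrl + L-Arg mice. Without DSS 1 or without DSS 3 the list had 1 member called higher.

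Markers of the other cells that a piece of colon can hold were set beside these results. Smooth muscle markers were at -0.66, -0.74 and -1.12 relative to the Ctrl mean in the DSS mice and at -1.11, -0.27 and -0.92 in the DSS + L-Arg mice, and posterior Hox genes, which mark position along the gut, at -0.62, -0.29 and -0.13 against 0.33, -0.86 and -0.65. Both overlapped between the groups. Adipocyte markers were at -0.45, -0.55 and -0.84 against 0.00, -0.04 and -0.13, with 10 of 11 means higher, 2 higher at an unadjusted p under 0.05 and none called by limma. Car3, a carbonic anhydrase abundant in fat, was 7.11, 5.93 and 6.28 against 10.07, 9.43 and 8.59 (difference 2.92, adjusted p = 0.13). T cell and NK cell markers (19 genes, median 0.02), B cell and plasma cell markers (13 genes, median -0.03) and mast cell and eosinophil markers (14 genes, median 0.07) had no calls by limma and medians close to that of all genes. At an unadjusted p under 0.05 the first and the last of these lists each had 1 lower and 1 higher member, and the B cell list had 1 higher. With a smooth muscle score as a covariate 199 genes were lower and 36 higher, and these included all of the 104 and the 23. With a posterior Hox score as a covariate 100 genes were lower and 26 higher. Of the 72 called genes named in the text 62 kept their call there.

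The arrays measured the 34 genes of a list drawn from what the study followed by PCR, as Mmp3, Mmp10, Mmp13 and Il6, or through proteins. Of these Mmp13, Mmp3, Mmp10 and Il6 were lower and none was higher, with a median of -0.43. The study picked these 4 from its results on the same arrays and measured them by PCR in the same RNA. One passage of it names IL-16 in place of IL-6. The 4 calls are therefore not independent of that choice. The other 30 genes were not called. At an unadjusted p under 0.05 (limma) 12 of the 34 were lower and 1 higher. Cxcl1, the neutrophil chemokine known as KC, was 7.51, 7.61 and 7.54 in the DSS mice and 7.03, 7.23 and 6.91 in the DSS + L-Arg mice, without overlap, and did not pass (difference -0.50, adjusted p = 0.0961). The list was chosen by the study for these mice, so its count is not independent evidence of direction. For some called genes, among them Zc3h12c and Glud1, the DSS mice were at the control level. Zc3h12c, of a family of RNases that degrade cytokine transcripts, was 6.77, 6.90 and 7.14 in the DSS mice, 5.96, 6.25 and 6.07 in the DSS + L-Arg mice and 6.79 to 6.88 in the Ctrl mice (difference -0.84, adjusted p = 0.0359). Glud1, the glutamate dehydrogenase of mitochondria, was 10.48, 10.61 and 10.45 against 10.16, 10.07 and 10.10, with 10.42 to 10.56 in the Ctrl mice (difference -0.40, adjusted p = 0.0489). Both were chosen after their values were seen.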

How the data were processed

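Per the labels, each sample was total RNA of colon from one mouse on one Affymetrix mouse gene array. The authors deposited log2 intensities made with RMA (background correction, quantile normalization and summary per probe set) in Affymetrix Expression Console 1.1, with mm9 as the build named in the labels. Of 35556 probe sets, 21789 had 1 gene in the platform table, 1621 several and 12146 none there; the brightest probe set stood for each of 19938 genes, and 19856 were named through their Entrez identifier. One linear model over all 12 arrays with a mean per group was fitted with limma 3.58.1 in R 4.3.3 (empirical Bayes, 8 residual and 3.37 prior degrees of freedom, Benjamini-Hochberg adjustment over all genes), and tables were made in Python 3.11.15 with pandas 2.3.3 and numpy 2.4.6. The scripts were tested on simulated data with the same spread in every group. This does not cover the wider spread of the DSS mice in the genes called lower. The precision is limited by the 3 arrays per group. The members and the 50 gene lists (886 of 956 genes measured) were chosen with earlier results of these data known. A rule marked genes for naming: the 15 largest increases and 15 largest decreases among called genes without overlap of the groups. It added up to 4 called members of each list or else the 2 with the smallest p. It also added all genes that the study measured by PCR or whose proteins it assayed. The text names only a part of the genes so marked, and leaves out Tmtc4, Rab29 and Oat among others. S100a8, Retnlg, Trem1, Cxcr2, Camp, Ms4a4a, Fcgr4, Mpeg1, Mrc1, Msr1, Csf1r, Adgre1, Cd68, C3ar1, Mmp19, Timp1, Mmp9, Mmp2, Mmp14, Tnc, Cemip, Cp, Duox2, Socs3, Osm, Cxcl2, Cxcl13, Pla2g7, Nrg1, Emcn, Abca1, Cps1, Otc and the genes named only in the closing section were chosen after their values were seen.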

Additional observations from a re-analysis of the deposited data

Results flagged for a closer look

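The effect of L-arginine differed between mice with and without DSS for 15 genes by limma's test of the difference itself (DSS + L-Arg minus DSS, less Ctrl + L-Arg minus Ctrl, adjusted p under 0.05), 13 of them more negative and 2 more positive with DSS. All 15 are named here. The difference was -4.42 for Mmp13, -3.75 for Serpina3n, -3.10 for Mmp3, -3.07 for Mmp10 and -2.70 for Plau. It was -2.43 for Cp, -2.33 for Cemip, -2.30 for Ms4a4a and -2.10 for Ptges. It was -1.57 for C1s1, -1.51 for Il6, -1.34 for Aoah, a lipase that inactivates bacterial endotoxin, and -1.29 for Nrg1. The 2 positive differences were 2.37 for Pla2g3 and 0.94 for Lyrm7, which takes part in assembly of respiratory complex III. The adjusted p was 0.000303 for Plau and Ms4a4a, and 0.0357 or lower for the others. Without DSS the effect of L-arginine was opposite in sign to that with DSS for all of these genes but Il6 (-0.015). It was 1.06 for Serpina3n, 0.68 for C1s1, 0.65 for Mmp13 and -0.62 for Pla2g3. None of these effects without DSS passed on its own. The genes were chosen for a large difference between the effects with and without DSS, which favors opposite signs.

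Outside the 19938 genes, 13767 probe sets with several genes or none in the platform table were tested. Of these 5 were lower in the DSS + L-Arg mice and 0 higher, with differences of -2.88 to -0.88 and a lowest adjusted p of 0.000798 (limma), and they have no gene name here.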

How the results depend on the processing

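All 104 lower and 23 higher genes kept their sign under every alternative that tested them, and a filter on dim genes left 98 and 21 of them. The values of the DSS and DSS + L-Arg mice did not overlap for these genes, so leaving out 1 array could not turn a sign. Several other alternatives used the same difference of means, so the kept signs are no evidence for the calls. The counts did move. With only the 6 DSS and DSS + L-Arg arrays 26 were lower and 0 higher, and with a replicate block on these 1 and 0. The unequal-variance test gave 0 and 0 (1156 genes at an unadjusted p under 0.05) and SAM 0 and 0 (1938 genes). SAM used 20 label orders, among them the true order and its mirror. Its adjusted p could therefore not fall below 0.1, and no call under 0.05 was possible. A smooth muscle covariate gave 199 and 36, and a posterior Hox covariate 100 and 26. At the study's thresholds the unequal-variance test gave 36 and 1, SAM gave 168 and 31, and array weights gave 12 higher. Leaving out 1 array gave 17 to 208 lower and 0 to 115 higher genes, and 134 to 226 and 13 to 71 at the study's thresholds. The deviations of mice with equal replicate numbers had an r of -0.36, 0.03 and -0.07, and the mice were treated as unpaired. With 3 mice per group these values cannot exclude a pairing by replicate number. With a replicate block over 12 arrays 94 were lower and 30 higher. Among uncalled genes the sign turned with 1 array left out for Arg2 (-0.61 without DSS 3 to 0.25 without DSS 1, and 0.10 without DSS + L-Arg 1), Nos2 (-1.05 to 0.078 without DSS 3), Slc7a1 (-0.20 to 0.038 without DSS 3) and Odc1 (-0.38 without DSS 2 to 0.48). The cause was not tested.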

Other observations

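Among the 68 lower genes that belong to no list, several encode secreted or matrix-bound proteins of stromal cells. Igfbp5, which binds insulin-like growth factors, was 10.47, 10.63 and 9.80 in the DSS mice and 8.51, 7.99 and 8.21 in the DSS + L-Arg mice (difference -2.06, adjusted p = 0.036). Thbs1, thrombospondin, was 10.76, 10.41 and 11.72 against 8.99, 9.20 and 9.23 (difference -1.82, adjusted p = 0.0246). Tgfbi (-1.59, adjusted p = 0.0217), the collagen-binding proteoglycan Dcn (-1.37, adjusted p = 0.0489) and Ccn2, also called connective tissue growth factor (-1.06, adjusted p = 0.0491), fell too, and for all 5 the groups did not overlap.

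Genes of innate sensing and its restraint were lower together. Tlr13, a receptor for bacterial ribosomal RNA, was 6.98, 7.18 and 8.77 against 5.61, 5.59 and 5.78 (difference -1.98, adjusted p = 0.0415). Map3k8, a kinase downstream of Toll-like receptors, differed by -1.05 (adjusted p = 0.0395), and Irak3, an inhibitor of the same receptors, by -1.12 (adjusted p = 0.023). Entpd1, which encodes CD39 and breaks down extracellular ATP, was 8.75, 8.39 and 9.24 against 7.10, 6.95 and 6.76 (difference -1.86, adjusted p = 0.0489). These genes were picked after their values were seen, and the groupings carry no test.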
